A study of Mus musculus with 23 samples.

Results

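The 9 genes described here encode the enzymes that make serine and pass its carbon through folate: 4 of the mitochondrial folate arm (Mthfd2, Mthfd1l, Shmt2 and Aldh1l2), 2 of the cytosolic arm (Mthfd1 and Shmt1) and 3 of serine synthesis (Phgdh, Psat1 and Psph). They were chosen by gene symbol as one pathway, with the cold response and the genotype difference of Mthfd2 in these same mice already known, so their values, and whether the fit over all genes called them, are given as a description. All 9 were found among the 14651 genes of the table. RNA was sequenced from brown adipose tissue (BAT) of 23 male mice aged 8 to 12 weeks on a C57BL/6 background, 1 library per mouse. Per the paper, the floxed line was made in cells of mixed background and crossed to C57BL/6 to near, not full, homogeneity. Control mice carried the floxed Mcu allele alone (Mcu fl/fl), and BAT-Mcu-KO mice (KO below) carried it together with a Ucp1-Cre transgene, which removes the floxed exon of Mcu, the pore of the mitochondrial calcium uniporter, only in cells that use the Ucp1 promoter. The groups were control at room temperature (RT, n = 6), control at 4°C (n = 5), KO at RT (n = 6) and KO at 4°C (n = 6). Mice at 4°C were kept for 6 h alone in pre-cooled cages without bedding or, unless stated otherwise, food. The paper does not say whether the RT mice of this experiment were fed or kept alone over that time. Any part of food withdrawal or single housing therefore cannot be told apart from cold. Only KO mice carried the Cre transgene, so its presence and the loss of Mcu cannot be told apart either.

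Serine is made from a glycolytic intermediate in a chain of reactions run by Phgdh, Psat1 and Psph. Serine hydroxymethyltransferases then move a carbon of serine onto tetrahydrofolate, giving glycine, and the carbon is oxidised to formate in mitochondria or used in the cytosol for purines, thymidylate and methionine. Parallel sets of enzymes run these folate steps in the 2 compartments, Shmt2, Mthfd2 and Mthfd1l in mitochondria and Shmt1 and Mthfd1 in the cytosol, and several genes of the pathway are known targets of Atf4, a transcription factor of the integrated stress response.

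Mthfd2 and Mthfd1 are shown first because they run the same folate steps on either side of the mitochondrial membrane and had unlike cold responses. The 250 bases before the RefSeq start of each gene (GRCm38.p6) are printed 5′ to 3′ on the strand of the gene, with capitals marking CCAAT and its reverse complement. The Mthfd2 stretch is chr6:83317605-83317854 on the minus strand, and the Mthfd1 stretch is chr12:76254982-76255231 on the plus strand.
Mthfd2: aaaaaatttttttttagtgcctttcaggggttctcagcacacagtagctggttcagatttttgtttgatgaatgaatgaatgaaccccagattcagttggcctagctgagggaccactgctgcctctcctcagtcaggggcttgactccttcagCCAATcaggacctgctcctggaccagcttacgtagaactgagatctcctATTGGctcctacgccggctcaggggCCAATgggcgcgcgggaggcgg
Mthfd1: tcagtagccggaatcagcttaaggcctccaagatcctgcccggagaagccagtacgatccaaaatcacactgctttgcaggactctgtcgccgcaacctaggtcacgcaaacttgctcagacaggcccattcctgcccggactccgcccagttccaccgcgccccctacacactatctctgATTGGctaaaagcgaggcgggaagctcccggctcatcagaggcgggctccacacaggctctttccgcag
CCAAT occurred at 3 places before Mthfd2 and at 1 before Mthfd1. Promoters of 300 bases (250 before and 50 after the start) were given for 8 of the 9 genes, Aldh1l2 being the exception. Neither of the motifs searched first, TGATGNAA, a composite element of the kind bound by Atf4, and CACGTG, the E-box, occurred on either strand in any of the 8. TGATGNAA was found in 3.97% and CACGTG in 7.15% of 32851 mouse promoters of the same length. CCAAT, searched after those were seen to be missing, occurred in 6 of the 9 promoters of these 8 genes (Psat1 has 2), and in 37.4% of all promoters. Mthfd2, called higher at 4°C, had it, as did Phgdh and Psph, called lower, and Mthfd1, Shmt1 and Psat1, not called. Shmt2, not called, did not have it, nor did Mthfd1l, whose call as higher in control mice was lost in several alternatives. Whether CCAAT bears on the cold response was not tested. None of the 3 motifs contains another.

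The genotype was visible in the libraries. Mcu averaged 109.5 ± 22.5 normalized counts in control and 35.1 ± 10.03 in KO mice at RT (SD, n = 6 and 6), and 107 ± 26.9 (n = 5) against 33.9 ± 6.604 (n = 6) at 4°C, without overlap at either temperature. Here a normalized count is the number of reads of a gene divided by the size factor of its library. Libraries held 7129271 to 21006347 assigned reads, and 3 of them (control at 4°C replicates 1 and 2 and KO at 4°C replicate 3) held fewer than 10000000. All 9 brown adipocyte markers were detected, and their summed level was 179300 to 249300 in control mice at RT and 282300 to 347000 at 4°C. Ucp1 made up most of that rise, from a mean of 63860 to 165200, and of the 9 markers cold called 4 higher and 3 lower in control and 3 higher and 1 lower in KO mice, Cidea going from a mean of 49560 to 39300 in control mice. The summed level of 5 endothelial markers was also higher at 4°C, at 2713 to 4107 against 4835 to 7626 in control mice and 2949 to 3867 against 4508 to 6381 in KO mice. Of these 5, cold called 2 higher and 1 lower in control mice and 2 higher and 0 lower in KO mice, and in control mice the means of Pecam1 and Kdr went from 1211 to 2335 and from 1024 to 2233, that of Tek from 474 to 472 and that of Emcn from 331.5 to 246.5. That of 5 macrophage markers was 369 to 532 against 492 to 848 in control and 252 to 554 against 633 to 818 in KO mice, and that of 4 fibroblast markers 2289 to 3072 against 2666 to 4070 and 1973 to 3225 against 2514 to 3818. Skeletal muscle markers varied from 0 to 40370 between mice, with overlap of all 4 groups, while only 1 of 5 lymphocyte and 1 of 5 proliferation markers were in the table, neither above 17.93. The part of other cell types in the results below was not tested, and in this bulk tissue fewer cells of a type and less RNA per cell cannot be told apart.

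Differences between groups are given on the scale of log2(normalized count + 1) as the estimate ± SE from a limma fit of all 23 mice. A gene is called where its p, adjusted over all 14651 genes by Benjamini-Hochberg, was under 0.05. In control mice cold called 4 of the 9 genes, 2 higher (Mthfd2 and Mthfd1l) and 2 lower (Phgdh and Psph), where 22.3% of all genes (3269) were called higher and 23.7% (3466) lower; scaling to the 75th percentile in place of size factors changed this split to 2644 and 4281. In KO mice it called 3, Mthfd2 higher and Phgdh and Psph lower, where the shares of all genes were 21.4% and 21.9%. Between genotypes none of the 9 was called at RT by limma, DESeq2 or edgeR, with 0 at an unadjusted p under 0.05 in limma, where 0.0478% of all genes were called, and Mthfd2 alone was called at 4°C, where 0.0751% were. The median log2 change of the 9 with cold was -0.03 in control and -0.30 in KO mice, beside -0.02 in each over all genes. The 9 genes thus went in different directions, and the plot of normalized counts by mouse shows each of them.

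**Figure D1:**
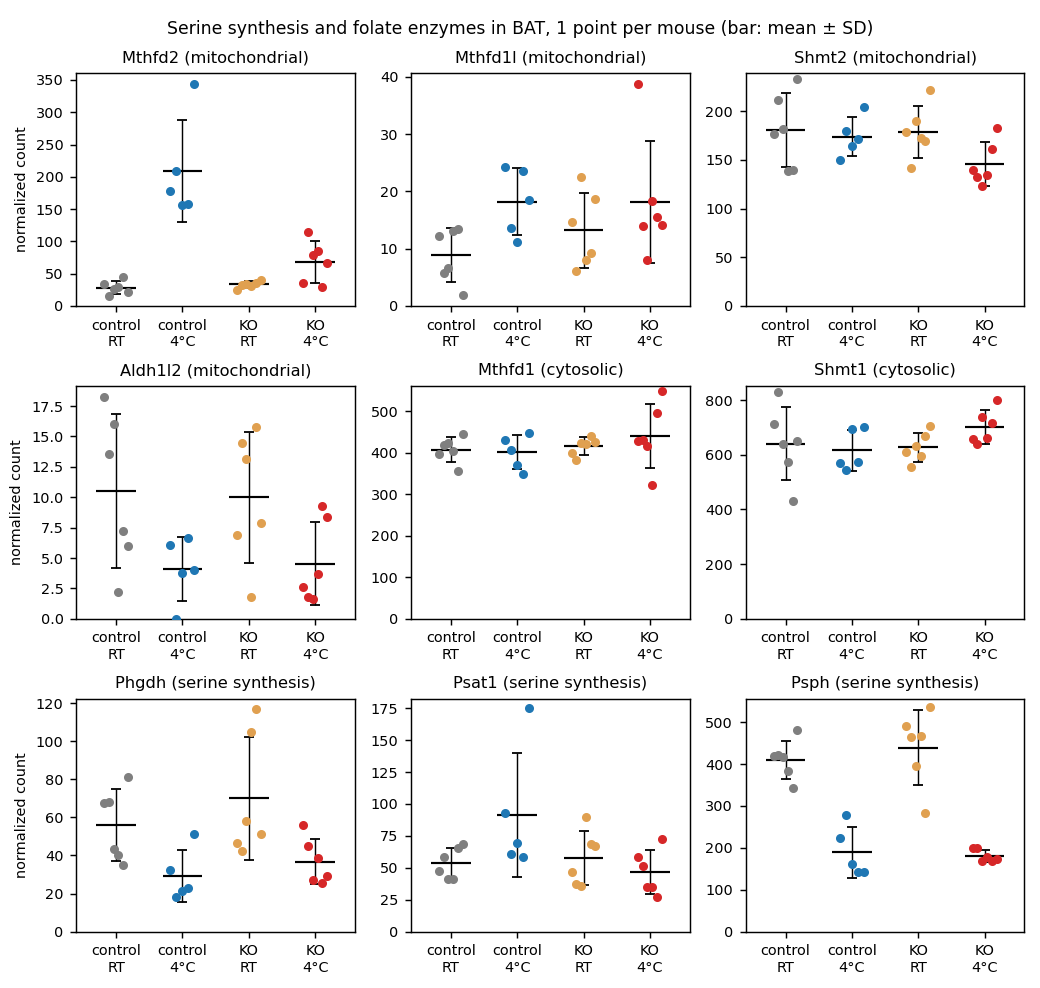
Normalized counts (linear axes from 0) of the 9 genes in each mouse, by group, with the mean and SD. Mthfd2 lay between 156 and 344 in the control mice at 4°C and at or below 114 in every other mouse, Psph was lower at 4°C in both genotypes, and Mthfd1 and Shmt1 kept overlapping levels in the 4 groups.

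Of the mitochondrial arm, Mthfd2 had the largest change. Mthfd2 (ENSMUSG00000005667.8; GRCm38 chr6:83305691-83325908, minus strand) encodes the dehydrogenase and cyclohydrolase that oxidises methylene-tetrahydrofolate to formyl-tetrahydrofolate in mitochondria. In control mice at RT its normalized count had a lowest value of 15.5, a median of 27.4 and a highest value of 44.5. The 5 control mice at 4°C had 178, 209, 156, 157 and 344. In KO mice the lowest, median and highest values were 25.0, 33.7 and 40.5 at RT and 29.45, 72.1 and 114 at 4°C. Every control mouse at 4°C lay above every mouse of the other groups, while 2 of the 6 KO mice at 4°C, replicates 1 and 5 with 34.8 and 29.45, lay inside the RT range. The mean of control mice went from 28.2 ± 10.2 (SD, n = 6) to 209 ± 78.6 (n = 5), a ratio of 7.41 and a log2 change of 2.85 ± 0.298, which was called. In KO mice the mean went from 33.4 ± 5.20 to 67.9 ± 31.9 (n = 6 each), a ratio of 2.03 and a log2 change of 0.87 ± 0.284, also called. The genotypes differed by 0.30 ± 0.284 at RT, not called, and by -1.69 ± 0.298 at 4°C, called, where the KO mean was 0.325 of the control mean.

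The calls of Mthfd2 depended on few mice in all but the control cold response. In KO mice the cold change was 0.69 and not called without replicate 2 at 4°C. The genotype difference at 4°C was not called without control replicate 2 (-1.67) or replicate 5 (-1.49), without the 3 libraries under 10000000 reads (-1.79), or when the groups at 4°C were fitted alone (-1.69). The difference between the cold changes of the genotypes was -1.99 ± 0.411. It was not called by limma, which called 0 of 14651 genes for this term (0%; 878 had an unadjusted p under 0.05). DESeq2 called 28 genes for it, including Mthfd2, and edgeR called 0.

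Mthfd1l (ENSMUSG00000040675.17; chr10:3973118-4167081, plus strand), the ligase that releases formate from formyl-tetrahydrofolate in mitochondria, was low throughout. In control mice its normalized counts were 1.986, 9.38 and 13.5 (lowest, median, highest) at RT and 24.3, 13.7, 11.2, 23.5 and 18.4 at 4°C. The KO values were 6.03, 12.0 and 22.6 at RT and 7.99, 14.8 and 38.8 at 4°C. The groups overlapped in both genotypes. The log2 change with cold was 1.10 ± 0.417 in control mice, called, and 0.41 ± 0.398 in KO mice, not called, on 2 to 59 reads per library. The control call was lost on leaving out any of 6 control mice (RT replicates 2, 3 and 6 and 4°C replicates 1, 4 and 5), with changes of 0.79 to 1.08. It was also lost without the libraries under 10000000 reads (1.06), in edgeR (1.03), with 75th percentile scaling (1.00) and with the compared groups alone (1.10).

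Shmt2 (ENSMUSG00000025403.5; chr10:127517123-127522444, minus strand), which loads the carbon of serine onto folate in mitochondria, was the most abundant gene of its arm at RT. Control mice had 138, 179 and 233 normalized counts at RT (lowest, median, highest) and 150, 179, 164, 172 and 204 at 4°C. KO mice had 141, 176 and 222 at RT and 123, 137 and 183 at 4°C. All 4 groups overlapped. Cold changed the estimate by -0.03 ± 0.143 in control mice, with a 95% interval from -0.33 to 0.26, and by -0.30 ± 0.136 in KO mice, with an interval from -0.58 to -0.01. Neither was called, although the second was without KO RT replicate 2 (-0.36) or 4°C replicate 6 (-0.36), or with 75th percentile scaling (-0.35).

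Aldh1l2 (ENSMUSG00000020256.14; chr10:83487450-83534140, minus strand), which oxidises formyl-tetrahydrofolate to carbon dioxide in mitochondria, was near the detection limit. It had 3 reads or fewer in 1 of 6 control mice at RT, 3 of 5 at 4°C, 1 of 6 KO mice at RT and 2 of 6 at 4°C. Its normalized counts ran from 2.18 to 18.2 in control mice at RT and were 6.07, 0, 3.73, 6.61 and 4.01 at 4°C. KO mice had 1.79 to 15.8 at RT, and 1.60 to 9.30 at 4°C. The log2 changes of -1.23 ± 0.582 and -0.99 ± 0.555 with cold were not called, except that the first was without control RT replicate 4 (-1.55). Exons of D10Wsu102e overlap 14.1% of the exon length of Aldh1l2, and D10Wsu102e changed by 0.04 and 0.03.

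The cytosolic enzymes showed no called change in any comparison. Mthfd1 (ENSMUSG00000021048.7; chr12:76255298-76319803, plus strand) does in the cytosol what Mthfd2 and Mthfd1l do in mitochondria. Control mice had 357, 411 and 445 normalized counts at RT (lowest, median, highest) and 431, 408, 371, 350 and 448 at 4°C. KO mice had 382, 423 and 442 at RT and 322, 430 and 550 at 4°C. The ranges overlapped in all 4 groups. The log2 change with cold was -0.02 ± 0.105 in control mice, with a 95% interval from -0.24 to 0.19, and 0.07 ± 0.10 in KO mice, from -0.14 to 0.27. At 4°C the genotypes differed by 0.12, with an interval from -0.10 to 0.34.

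Shmt1 (ENSMUSG00000020534.14; chr11:60788104-60811718, minus strand), the cytosolic counterpart of Shmt2, had 432, 646 and 831 normalized counts in control mice at RT (lowest, median, highest) and 568.4, 545, 693, 575 and 702 at 4°C. In KO mice it had 554, 621 and 704 at RT and 640, 690 and 800 at 4°C. The ranges again overlapped. Its log2 change with cold was -0.03 ± 0.120 (95% interval -0.28 to 0.21) in control mice and 0.16 ± 0.114 (-0.07 to 0.40) in KO mice, and the genotypes differed at 4°C by 0.19 (-0.06 to 0.44). Exons of Smcr8, which rose with cold by 1.62 in control mice (limma adjusted p = 1.59e-11), overlap 4.74% of the exon length of Shmt1.

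Levels were compared between genes per kilobase of exon. In control mice at RT Shmt1 stood highest at 165 ± 34.4 normalized counts per kb, followed by Psph at 94.9 ± 10.5 and Mthfd1 at 91.8 ± 6.68, which did not differ beyond their spread. Shmt2 followed at 57.95 ± 12.2, Phgdh at 22.5 ± 7.55, Psat1 at 12.6 ± 2.80 and Mthfd2 at 8.09 ± 2.92, and Mthfd1l and Aldh1l2 stood last at 1.995 ± 1.06 and 1.405 ± 0.844, again within their spread. In control mice at 4°C the per-kb level of Mthfd2, 59.9 ± 22.6, was beside that of Shmt2, 55.9 ± 6.52. In KO mice at 4°C Mthfd2 was at 19.5 ± 9.16 per kb and Shmt2 at 46.8 ± 7.13.

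The per-kb ratio of Mthfd2 to Mthfd1 was 0.0903 ± 0.0399 in control mice at RT. The 5 control mice at 4°C had ratios of 0.526, 0.654, 0.534, 0.572 and 0.978. In KO mice it was 0.102 ± 0.0139 at RT and 0.0754, 0.196 and 0.337 (lowest, median, highest) at 4°C. No control mouse at 4°C overlapped any mouse of the other groups. The mitochondrial share of the summed per-kb level of the 6 folate enzymes was 21.4% ± 2.12 in control mice at RT, 32.3% ± 3.74 at 4°C, 21.8% ± 1.59 in KO mice at RT and 20.3% ± 2.22 at 4°C. The control mice at 4°C, at 27.7% to 37.5%, again lay above all others, of which the highest was at 24.4%. Mthfd2 made up nearly all of this rise in control mice, from a mean of 8.09 to 59.9 per kb. Of the other mitochondrial genes, Shmt2 went from 57.95 to 55.9 per kb, Mthfd1l from 1.995 to 4.11 and Aldh1l2 from 1.405 to 0.544.

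The ratio of Shmt2 to Shmt1 did not follow that order. It averaged 0.356 ± 0.0590 in control mice at RT, 0.354 ± 0.0437 at 4°C (n = 5) and 0.355 ± 0.0313 in KO mice at RT. In KO mice at 4°C it was 0.259 ± 0.0275 (n = 6), and the highest of these mice, 0.285, lay below the lowest of the other 3 groups, 0.296. Neither gene alone was called between genotypes at 4°C, and this ratio was singled out after its values were seen. The mean log2 level of the 4 mitochondrial genes minus that of the 2 cytosolic genes, which weights low genes as much as high ones, was -4.32 ± 0.442, -3.62 ± 0.360, -4.12 ± 0.320 and -4.24 ± 0.261 in the same order of groups (control RT and 4°C, KO RT and 4°C), and these ranges overlapped.

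**Figure D2:**
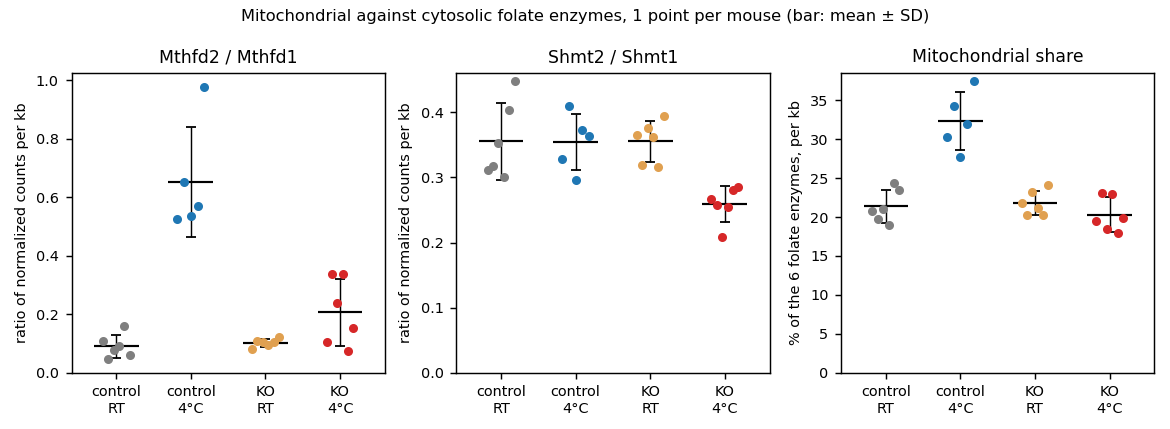
Ratios of normalized counts per kb for Mthfd2 over Mthfd1 and Shmt2 over Shmt1, and the mitochondrial share in percent of the 6 folate enzymes, by mouse and group with mean and SD. Control mice at 4°C stood above the rest in the outer panels, at 0.526 to 0.978 and 27.7% to 37.5%, and KO mice at 4°C stood below the rest in the middle panel, at 0.209 to 0.285.

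In serine synthesis the limma fit called the first and last enzymes lower with cold in both genotypes and did not call the middle one in either. Phgdh (ENSMUSG00000053398.11; chr3:98313170-98339990, minus strand) oxidises phosphoglycerate and so commits carbon to serine. Its normalized counts in control mice were 35.2, 55.5 and 81.4 (lowest, median, highest) at RT and 32.4, 18.2, 21.2, 22.8 and 51.3 at 4°C. In KO mice they were 42.2, 54.8 and 117 at RT and 25.6, 33.8 and 55.9 at 4°C. The 4°C values were lower on average, with overlap in both genotypes. The log2 change was -0.95 ± 0.303 in control mice (ratio of means 0.521) and -0.85 ± 0.289 in KO mice (0.526), both called. The KO call was lost without RT replicate 4 (-0.71) or RT replicate 5 (-0.68), the 2 highest mice, or after quantile normalization (-0.71), and the control call without the libraries under 10000000 reads (-0.85).

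Psat1 (ENSMUSG00000024640.9; chr19:15904678-15947337, minus strand), the aminotransferase of the middle step, had 41.3, 53.0 and 68.5 normalized counts in control mice at RT (lowest, median, highest) and 93.1, 60.7, 69.7, 58.8 and 175 at 4°C. In KO mice it had 35.7, 56.9 and 89.6 at RT and 27.1, 43.4 and 72.6 at 4°C. Control replicate 5 at 4°C, at 175, was the highest mouse and was also the highest for Mthfd2. The log2 change with cold was 0.65 ± 0.288 in control and -0.30 ± 0.275 in KO mice, and the genotypes differed at 4°C by -0.91 ± 0.288, none of them called. The control change was called in DESeq2 and edgeR (0.77 in each), after quantile normalization (0.72), and without control 4°C replicate 2 (0.77) or replicate 4 (0.78).

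Psph (ENSMUSG00000029446.14; chr5:129765558-129787449, minus strand), the phosphatase that releases serine, fell in every mouse at 4°C below every mouse at RT of its genotype. Control mice had 344, 418 and 481 normalized counts at RT (lowest, median, highest) and 223, 279, 161, 143 and 142 at 4°C. KO mice had 283, 465.8 and 535 at RT and 168, 176 and 199.9 at 4°C. The log2 change was -1.16 ± 0.160 in control mice and -1.25 ± 0.153 in KO mice, with ratios of means of 0.461 and 0.413. Genotype differences were 0.08 ± 0.153 at RT and -0.01 ± 0.160 at 4°C, with a 95% interval at 4°C from -0.34 to 0.32. On the opposite strand, exons of Cct6a overlap 10.4% of the exon length of Psph, and reads were counted without strand. Cct6a rose with cold by 0.50 in control mice (limma adjusted p = 2.68e-05) and by 0.45 in KO mice (6.01e-05), opposite in sign to Psph.

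The rest of the pathway was read from a list of 29 further genes of folate transport, glycine cleavage, folate use and serine breakdown, of which 24 were in the table. In control mice cold called 1 of the 24 higher and 12 lower, where 22.3% and 23.7% of all genes were, with a median log2 change of -0.53 against -0.02 over all genes. In KO mice 3 were higher and 8 lower, where 21.4% and 21.9% of all genes were, with a median of -0.30. Between genotypes none of the 24 was called at RT or at 4°C by limma, DESeq2 or edgeR, with 2 at an unadjusted p under 0.05 in limma at each temperature.

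Of the mitochondrial genes of the list, Sfxn1, a serine carrier of the inner membrane, fell from 2550 ± 242 to 1478 ± 316 normalized counts in control mice (-0.81, limma adjusted p = 2.55e-06) and by 0.65 on the log2 scale in KO mice (2.82e-05). Gcsh and Amt, proteins of the glycine cleavage system, fell by 0.88 and 0.71 in control mice (limma adjusted p = 4.74e-07 and 0.0142) and by 0.77 and 0.73 in KO mice. Sardh, which feeds carbon from sarcosine into folate, fell by 0.89 and 0.94 (limma adjusted p = 0.000127 and 4.08e-05). In control mice Sfxn2 (-0.93) and Mtfmt (-0.61), which formylates the initiator transfer RNA of mitochondria, were called lower. In KO mice they changed by -0.45 and -0.14 and were not called. The difference between genotypes in these changes was not called (limma adjusted p = 0.873 and 0.841). DESeq2 called the KO change of Sfxn2 (-0.46). Slc25a32, the mitochondrial folate carrier, and Sfxn3 rose in KO mice by 0.47 and 0.60 (limma adjusted p = 0.023 and 0.00808). They changed by 0.37 and 0.44 in control mice, not called. The control change of Sfxn3 was called in DESeq2 (0.49) and edgeR (0.48), and that of Slc25a32 without control 4°C replicate 5 (0.53). For neither gene was the difference between genotypes in the cold change called (limma adjusted p = 0.962 and 0.945). Mthfd2l, the isozyme of Mthfd2, changed by -0.66 in control and -0.42 in KO mice, not called, from 41.0 ± 9.09 to 25.8 ± 6.76 normalized counts in control mice. The control change of Mthfd2l was called in 7 alternatives, among them DESeq2 (-0.69) and 75th percentile scaling (-0.77), and the KO change without RT replicate 3 (-0.63). Dld changed by 0.07 and 0.15 and was not called.

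Mtrr, which reactivates methionine synthase, rose by 1.10 and 0.80 (limma adjusted p = 5.42e-05 and 0.00108). Mtr, methionine synthase itself, fell by 0.66 and 0.74 (limma adjusted p = 0.0203 and 0.00766). Gart, of purine synthesis, fell by 0.66 and 0.71 (limma adjusted p = 0.000667 and 0.000203). Mthfs fell by 0.94 in control mice (limma adjusted p = 0.00251) and changed by -0.36 in KO mice, not called, and limma did not call the difference between the 2 changes (adjusted p = 0.85). Tyms, Atic and Aldh1l1 were not called in either genotype.

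Slc19a1, the reduced folate carrier, fell by 0.72 in control mice (limma adjusted p = 0.0025) and by 0.91 in KO mice (0.000181). Slc46a1, the proton-coupled folate transporter, fell by 0.72 in control mice (limma adjusted p = 0.0258) and changed by -0.48 in KO mice, not called. The difference between these changes was not called (limma adjusted p = 0.943). Folr2, Fpgs and Ggh were not called. Of the genes of serine breakdown, Sdsl fell by 0.45 in control mice (limma adjusted p = 0.00167) and Srr by 0.37 in KO mice (0.00768). Sdsl changed by -0.25 in KO mice, not called but called in 9 alternatives, and Srr by -0.19 in control mice, not called but called in 3. The difference between genotypes in these changes was not called (limma adjusted p = 0.879 and 0.894). On the opposite strand, exons of Tsr1 overlap 27.2% of the exon length of Srr. The part of Tsr1 reads in the counts of Srr was not tested. Among these genes the control calls of Amt (without 4°C replicate 1, -0.50), Mtr (without RT replicate 2, -0.50, or 4°C replicate 3, -0.55) and Slc46a1 (without RT replicate 2, -0.65, RT replicate 6, -0.66, or 4°C replicate 5, -0.47) were lost on leaving out 1 mouse. So was the KO call of Slc25a32 (without RT replicate 5 or 4°C replicates 3 or 4, 0.40 to 0.43). Without the libraries under 10000000 reads the control calls of Amt (-0.36) and Mtfmt (-0.44) were lost.

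**Figure D3:**
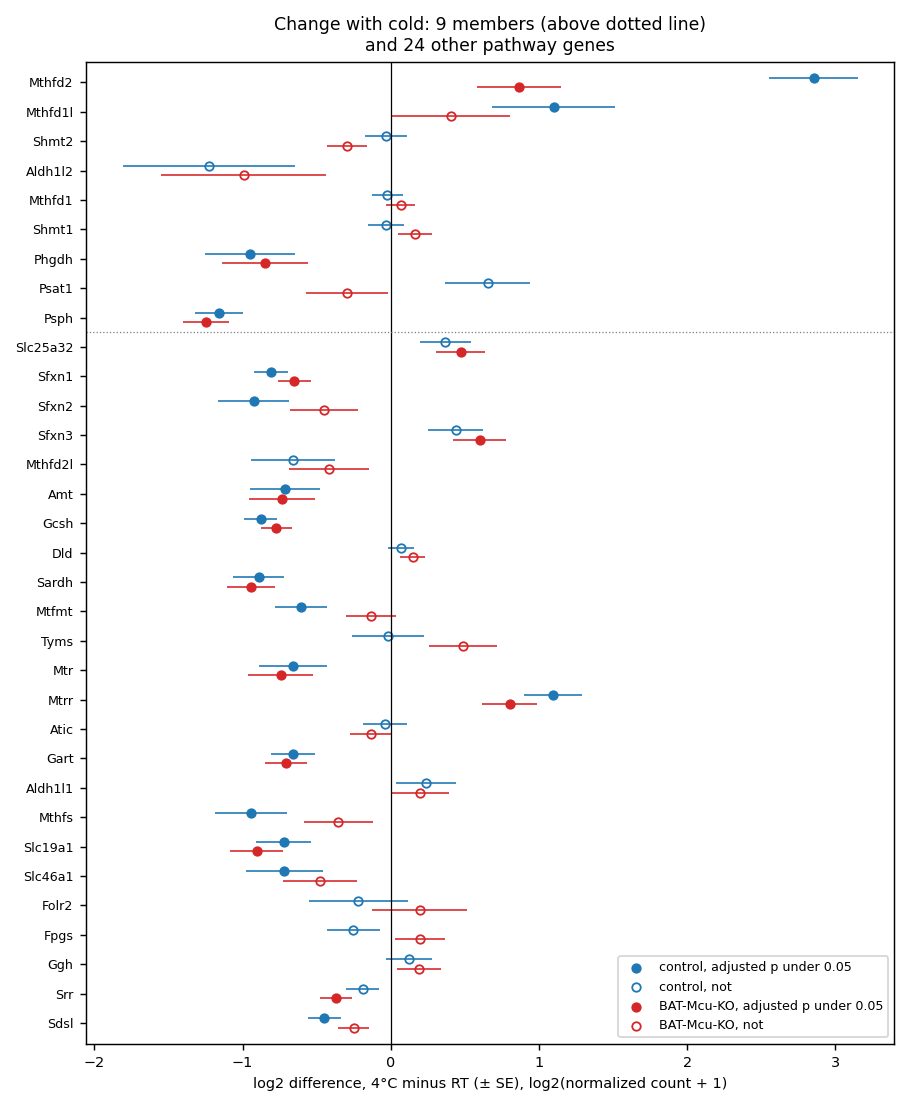
Log2 difference between 4°C and RT (± SE, on log2 of normalized count + 1) for the 9 genes, above the dotted line, and the 24 other pathway genes, in control (blue) and KO mice (red); filled points had an adjusted p under 0.05. Mthfd2 stands at 2.85 in control and 0.87 in KO mice and Psph at -1.16 and -1.25, and most of the other called points lie left of 0.

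Atf4 was read beside the 9 genes as a known regulator of the pathway. Its normalized counts were 536 to 695 in control mice at RT and 2977, 3015, 2769, 3071 and 3128 at 4°C, and in KO mice 455 to 585 at RT and 1554, 2218, 2207, 2191, 1417 and 1947 at 4°C. All KO mice at 4°C lay between the control mice at 4°C and the mice at RT. Its log2 change with cold was 2.30 ± 0.109 in control and 1.88 ± 0.104 in KO mice, both called. The genotypes differed by -0.25 at RT, not called, and by -0.66 ± 0.109 at 4°C, called. The difference between the cold changes of the genotypes, -0.41, was not called (limma adjusted p = 0.78). Replicates 1 and 5 of the KO mice at 4°C, the lowest of their group for Mthfd2, were also the lowest for Atf4. Replicates 1, 5 and 6 were the 3 lowest of the group for Ppargc1a (9754, 7278 and 9610 normalized counts against 11780 to 13020 in the others) and for Dio2 (13570, 13420 and 13160 against 15710 to 16470), both of which are induced by cold in BAT. For Ucp1 replicates 1 and 5 had 167100 and 159400, where the other 4 mice had 145100 to 169100. For Psat1 replicate 5 was the lowest of the group at 27.1 and replicate 1 was second highest at 58.5. The control mice at 4°C had 14140 to 25450 for Ppargc1a and 16730 to 19730 for Dio2, above every KO mouse at 4°C. For Ucp1 the control mice at 4°C had 140900 to 198000, which overlapped the KO mice. None of the 9 brown adipocyte markers, which include Ppargc1a and Ucp1, was called between genotypes at 4°C by limma, and the call of Dio2 was not read. The paper reports the rise of Ucp1, Ppargc1a and Dio2 with cold as independent of genotype.

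**Figure D4:**
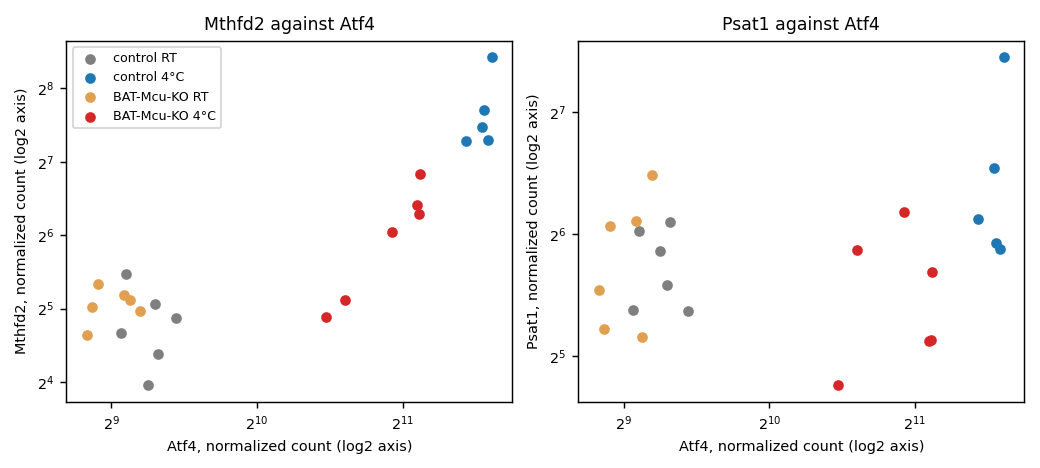
Normalized counts of Mthfd2 (left) and Psat1 (right) against Atf4, both on log2 axes, with 1 point per mouse coloured by group. For Mthfd2 the KO mice at 4°C, at 29.45 to 114, lie below the control mice at 4°C, at 156 to 344, with 2 of the 6 inside the RT range, and for Psat1 they overlap the RT mice.

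Across the 23 mice the genes with a pattern most like that of Mthfd2, by Pearson correlation of log2 levels and with the 9 genes left out, were Cars (r = 0.893), Tars (0.891), Nars (0.875), Rhbdd1 (0.875) and Fgf21 (0.873), with Atf4 in place 6 (0.866). Cars, Tars and Nars encode transfer RNA synthetases and Fgf21 a secreted hormone. Fgf21 averaged 2.28 normalized counts in control mice at RT, 109 at 4°C, 2.71 in KO mice at RT and 26.2 at 4°C. The points share the temperature and genotype differences between the groups. On deviations from the group means the 5 nearest genes were 6430571L13Rik (0.813), 2310058D17Rik (0.69), Dusp26 (0.684), Eprs (0.67) and Zufsp (0.658), none of which was in the first list, and Atf4 took place 13 (0.594). Of the other 8 genes, Psat1 (0.468) and Mthfd1l (0.435) had the highest correlation with Mthfd2 in level and Psph (-0.715) the lowest.

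For Mthfd1 the nearest genes in level were Gtf2a1 (r = 0.707), Rnf13 (0.706), Ptcd3 (0.703), Ccdc51 (0.703) and Msr1 (0.694), and Atf4 had a correlation of -0.00623. Its correlation with Shmt1 was 0.491 and with Mthfd2 -0.143.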

How the data were processed

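Per the study's methods, BAT libraries were made with the Smart-seq2 protocol and aligned by the authors with STAR 2.4.0j to mm10 with GENCODE annotation, and uniquely mapped exonic reads were counted with HTSeq irrespective of strand. The authors kept genes that reached 8 reads in 6 or more samples and deposited normalized counts, a signal in which reads were divided by DESeq2 size factors. The lowest nonzero value of each library was taken as a single read. Each deposited value, divided by that lowest value, gave a whole read count within 0.05 (100% of values). A table of the authors' own comparisons was not used, and 0 sample columns were left out. Samples were grouped by the labels' genotype and temperature.

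The 9 genes, the gene lists and the tests were chosen with earlier results of these data known. The named genes were the 9, Mcu, Atf4, and the 5 genes most like Mthfd2 and like Mthfd1. Pathway genes called in a cold comparison were also named, at most 15 by size of change in control mice. The other pathway genes and the genes that overlap the 9 were named after their values were seen. Tsr1 was named for its overlap with Srr. Ucp1, Ppargc1a and Dio2 were not planned for naming mouse by mouse and were added beside Mthfd2 and Atf4. Single cell type markers were named from the marker lists. limma 3.58.1 (R 4.3.3, trend) was fitted to log2(normalized count + 1) with 4 group means, two-sided, adjusted over 14651 genes. Alternatives were DESeq2 1.42.0 and edgeR 4.0.16 on the recovered reads, pseudocounts of 0.5 and 10, a mean filter of 50, quantile and 75th percentile scaling, the compared groups alone, a replicate block, and each mouse left out. Leaving out the 3 libraries under 10000000 reads and the motif CCAAT were added after seeing the data. The scripts were tested on simulated data. Gene positions and exon lengths came from GENCODE M21 (GRCm38) and promoters from RefSeq (GRCm38.p6). The labels do not say whether the mice were littermates, and p-values measure the spread between mice. Some items of the pathway list are not reported here.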

Additional observations from a re-analysis of the deposited data

Results flagged for a closer look

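Of 36 sets of values, each of the 9 genes in each of the 4 groups, 2 held a mouse far from the others by Dixon's test, which flags about 1 set in 20 by chance, or 1.8 of these sets. Mthfd2 was 344 normalized counts in control replicate 5 at 4°C, where the other 4 mice had 156 to 209. Mthfd1l was 38.8 normalized counts in BAT-Mcu-KO replicate 1 at 4°C, where the other 5 mice had 7.99 to 18.3.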

How the results depend on the processing

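The number of the 9 genes called with cold in control mice was 4, and 2 when genes with a mean normalized count under 50 were removed, which leaves 6 of the 9 to test, or without the 3 libraries under 10000000 reads; leaving out 1 mouse gave 3 to 5. The 1 gene called between genotypes at 4°C, Mthfd2, was 0 with only the compared groups, with the replicate block and without the low-depth libraries, and 0 to 1 on leaving out 1 mouse (0 without control 4°C replicate 2 or 5). For the interaction the count was 0, and 1 in DESeq2. With the mean filter, which removes Mthfd1l and Aldh1l2, the difference between mitochondrial and cytosolic levels changed by 1.44 in place of 0.70 with cold in control mice and by -1.13 in place of -0.62 between genotypes at 4°C. No called change of the 9 genes changed sign. The difference between mitochondrial and cytosolic levels with cold in KO mice, which was not tested, was -0.12. It ran from -0.23 to 0.17 over the alternatives and so took either sign. The cause of the remaining changes was not tested. Same-numbered mice are different animals. Their deviations from the group means correlated over 0.1 in 2 of 5 pairs between genotypes at 4°C and in 0 pairs of the other comparisons. Between genotypes at 4°C all 5 pairs were positive, from 0.0416 to 0.218 with a mean of 0.121. The means of the other comparisons were -0.0952 to -0.029. Whether same-numbered mice at 4°C were handled together was not tested. Apart from Mthfd2 at 4°C, the replicate block changed the calls of Psat1 (0.75, called) and Sfxn3 (0.49, called) with cold in control mice and of Sdsl (-0.25, called) in KO mice. Scaling to the 75th percentile moved the median change of all genes with cold in control mice from -0.02 to -0.13, ended the call of Mthfd1l in control mice (1.00) and called Shmt2 in KO mice (-0.35), and turned no direction among the called genes of the 9. Genes with few reads, Aldh1l2 and Mthfd1l, limit what could be seen at this depth.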
